A study of Mus musculus with 41 samples.

Results

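The genes described are 9 markers of B cells and of the plasma cells that B cells give rise to: Cd79a, Cd79b, Ms4a1, Cd22, Blk, Pax5, Ighm, Igkc and Mzb1. They were chosen by symbol, and all 9 were found among the 47480 symbols of the table. RNA was sequenced from 41 untreated mouse mammary tumors in the Balb/c background, with 1 library per tumor. Of these, 28 lacked both Plk2 and p53 (Plk2-/-; p53-/-, here Plk2-null tumors) and 13 lacked p53 only (p53-/-, here p53-null tumors). The labels and the study's methods describe null alleles in mammary epithelial cells that had been transplanted into syngeneic hosts, with later passage of the tumors in the fat pad. The wild-type Balb/c recipients of the Plk2-null cells have B cells of their own, so a piece of tumor can hold host lymphocytes. The study's supplement calls PLK2null-732, PLK2null-733 and PLK2null-743 claudin-low, a class it set from RNA of these same tumors, so the class is not independent of expression. The other 25 Plk2-null tumors formed the group compared with these 3. The supplement also lists the p53-null tumor T11 as claudin-low, and T11 was left out of this comparison. The claudin-low tumors named below are these 3. The labels do not say which tumors came from separate mice or from passages of 1 tumor, and p-values measure the spread between these samples. PLK2null-732, PLK2null-733 and PLK2null-743 were most like each other in RNA, with Pearson r of 0.978 to 0.986 over 17208 genes. The next tumor for each was PLK2null-7763, at 0.891 to 0.906. Other Plk2-null tumors were as alike, and PLK2null-1985 and PLK2null-1986 were the closest of all 820 pairs, at 0.986. Tests that count such tumors as separate may therefore overstate how many independent tumors there were. This holds for the genotype comparison as well as for the class comparison.

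A B cell senses antigen through a surface immunoglobulin that is paired with the signalling chains Cd79a and Cd79b, and Cd22 and the kinase Blk tune that signal. Pax5 is the transcription factor that holds a cell in the B lineage. Naive B cells carry IgM and IgD, and after activation a cell may switch to IgG or IgA and become a plasma cell, which turns off Pax5, Cd79a, Ms4a1 and Cd22 to differing degrees and makes large amounts of immunoglobulin RNA and Jchain. The mouse mammary fat pad itself holds a lymph node, which is full of naive B cells.

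Promoter sequences were at hand for 3 of the 9 genes (Cd79a, Cd22 and Pax5), from RefSeq with build GRCm38.p6. The 250 bases before the RefSeq start of Cd79a and of Pax5 are shown because these genes define the B lineage. The Cd79a window is chr7:24897247-24897496 on the plus strand, and the Pax5 window is chr4:44710695-44710944 on the minus strand. Capitals mark the letters AGGAAG, the core bound by Ets factors and PU.1.
Cd79a: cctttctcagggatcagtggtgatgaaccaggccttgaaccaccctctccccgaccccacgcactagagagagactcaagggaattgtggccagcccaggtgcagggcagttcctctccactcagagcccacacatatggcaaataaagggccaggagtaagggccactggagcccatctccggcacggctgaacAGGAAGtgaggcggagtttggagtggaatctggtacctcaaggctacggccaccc
Pax5: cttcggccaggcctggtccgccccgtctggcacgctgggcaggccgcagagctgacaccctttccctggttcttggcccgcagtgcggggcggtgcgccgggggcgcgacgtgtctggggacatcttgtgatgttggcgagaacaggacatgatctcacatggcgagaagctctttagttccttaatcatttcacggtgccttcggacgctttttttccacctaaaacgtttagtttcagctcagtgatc

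Both strands of the 300-base windows, which run 50 bases past the start, were searched. AGGAAG was found once in Cd79a, at position -55 from the start, and lies in 35.4% of all 32851 promoters of this length. CCCNNGGG, the core of EBF sites, was found once in Cd22, at position -48, and lies in 13.7% of promoters. The octamer ATGCAAAT, read by Oct factors, lies in 1.74% of promoters and was in none of the 3 windows. The 3 motifs do not overlap each other in these windows, and a match describes letters only.

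The value of a gene is its deposited signal, scaled so that the upper quartile of nonzero genes is 1000 in every tumor. A read was worth 0.388 to 0.817 of these units, and 3 reads, the floor of detection used here, 1.16 to 2.45. Each tumor's step implies 29409609 to 70868124 fragments, and the floor covers counting error only. In a bulk tumor, fewer B cells and less RNA per B cell cannot be told apart. All 13 p53-null titles carry a numbered series name (ROSEN) that no Plk2-null title carries, so a batch and the genotype cannot be told apart.

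In 1 tumor, PLK2null-1981, each of the 9 genes had its highest value of all 41 tumors. Among the 17208 genes tested across all tumors, 1.45% were highest in that tumor. PLK2null-1981 was named after its values were seen. Some of the results that follow are given with and without it, and the others include it. The 4 tumors PLK2null-732, PLK2null-733, PLK2null-743 and PLK2null-7763 came next for Cd79a, Cd79b, Ms4a1 and Pax5. T11, a p53-null tumor that the study's supplement lists as claudin-low, was low in most of the 9 genes.

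**Figure D1:**
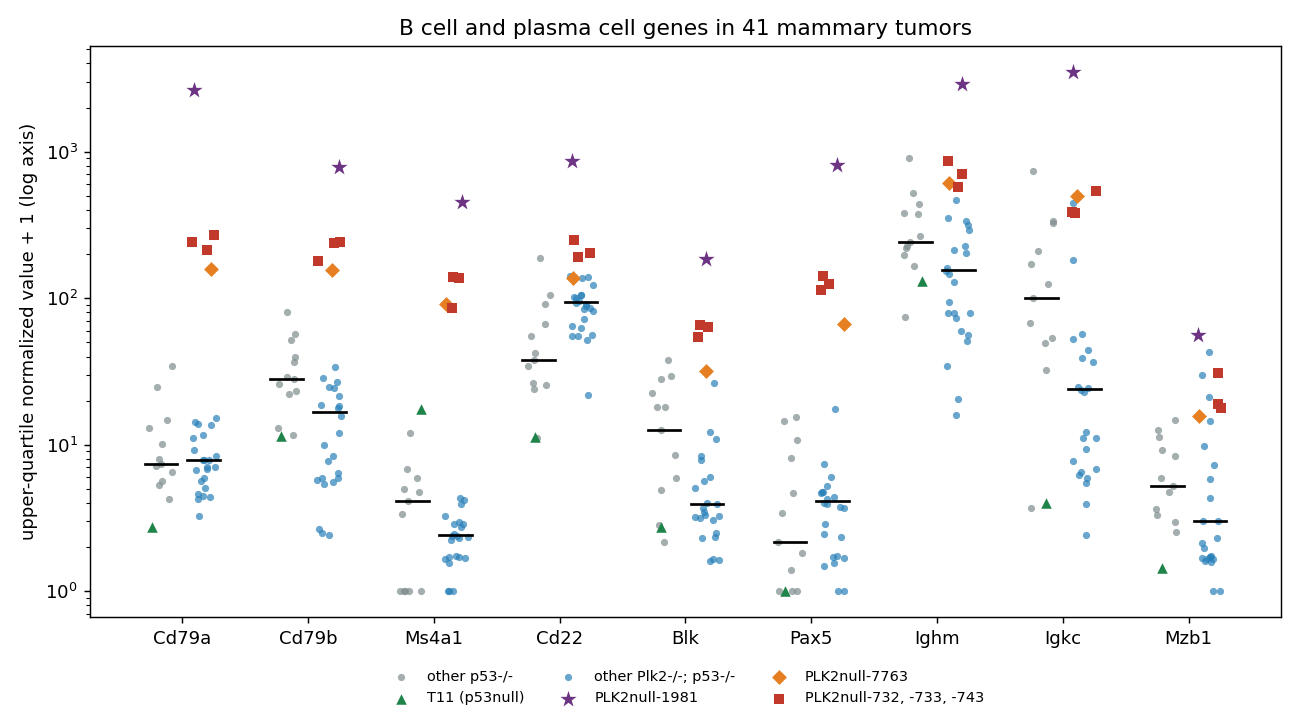
Normalized value + 1 (log axis) of the 9 genes in each tumor, with p53-null tumors to the left and Plk2-null tumors to the right of each gene name and a black bar at each group's median. PLK2null-1981 (star) is highest for every gene, and the red squares (PLK2null-732, PLK2null-733 and PLK2null-743) lie above all other p53-null and Plk2-null tumors apart from PLK2null-1981 for Cd79a, Cd79b, Blk, Pax5 and Cd22.

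Cd79a encodes the Ig-alpha chain of the B cell receptor (chromosome 7, 24897381 to 24902197, plus strand, GENCODE vM21 on GRCm38). Its value was 213 in PLK2null-732, 243 in PLK2null-733, 269 in PLK2null-743, 158 in PLK2null-7763, 1.73 in T11 and 2625 in PLK2null-1981. The 28 Plk2-null tumors ran from 2.24 to 2625 with a median of 6.88, and the 13 p53-null tumors from 1.73 to 33.7 with a median of 6.39. The 2 medians were thus close, and the genotypes differed in the upper tail, which PLK2null-1981, PLK2null-743, PLK2null-733, PLK2null-732 and PLK2null-7763 made up in that order.

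Cd79b encodes the partner chain, Ig-beta (chromosome 11, 106311341 to 106314762, minus strand). It was at 179 in PLK2null-732, 240 in PLK2null-733, 237 in PLK2null-743, 155 in PLK2null-7763, 10.4 in T11 and 786 in PLK2null-1981. The Plk2-null tumors had a lowest value of 1.44, a median of 15.8 and a highest of 786, against 10.4, 27.3 and 79.4 in the p53-null tumors. Outside the 5 highest tumors the lowest values therefore belonged to Plk2-null tumors, and the next highest, 79.4, to p53null-2153L.

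The balance of the 2 receptor chains differed between the tumors in which both were high. Per kilobase of exon, Cd79a and Cd79b were at 146 and 125 in PLK2null-732, 167 and 167 in PLK2null-733, 185 and 166 in PLK2null-743 and 108 and 108 in PLK2null-7763. In PLK2null-1981 the level per kilobase was 1802 for Cd79a and 549.5 for Cd79b. The ratio of the deposited values was 3.34 there and 1.01 to 1.19 in the other 4 tumors. T11 had the opposite order per kilobase, 1.19 for Cd79a and 7.26 for Cd79b, as had the median of the 36 tumors outside these 5, 4.29 and 12.02.

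Ms4a1 encodes CD20, a surface protein of B cells that plasma cells lack (chromosome 19, 11249675 to 11266241, minus strand). A gene on the opposite strand, 4930526L06Rik, overlaps it, and no source used here says that reads were counted by strand, so reads of the 2 cannot be told apart. Ms4a1 was at 84.5 in PLK2null-732, 137 in PLK2null-733, 139 in PLK2null-743, 90.5 in PLK2null-7763 and 452 in PLK2null-1981. T11, at 16.4, was the highest p53-null tumor and the highest tumor outside these 5. Of the other tumors most were at or near 0. In the 28 Plk2-null tumors the lowest value was 0 and the median 1.42, with 16 tumors under the floor of 3 reads, and in the 13 p53-null tumors the lowest was 0 and the median 3.12, with 5 under the floor.

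Pax5 (chromosome 4, 44524757 to 44710487, minus strand) was 113 in PLK2null-732, 123 in PLK2null-733, 141 in PLK2null-743, 65.8 in PLK2null-7763 and 810 in PLK2null-1981, and was listed at 0 in T11. The next highest value was 16.5, in PLK2null-1965. Its range was 0 to 810 with a median of 3.15 in the Plk2-null tumors and 0 to 14.4 with a median of 1.16 in the p53-null tumors, of which 7 were under the floor. The antisense gene Gm12462, the microRNA gene Mir5120 and 2 further transcripts on the plus strand lie within its span. T11 therefore had reads assigned to Ms4a1, which the overlapping antisense gene may share, without detectable Pax5 and with little Cd79a.

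Cd22, an inhibitory receptor that binds sialic acid (chromosome 7, 30865402 to 30880342, minus strand, overlapped by the antisense gene Gm29439), did not fall to the floor in any tumor. It was at 189 in PLK2null-732, 202 in PLK2null-733, 251 in PLK2null-743, 137 in PLK2null-7763, 10.3 in T11 and 862 in PLK2null-1981. The Plk2-null tumors ran from 20.98 to 862 with a median of 93.2, and the p53-null tumors from 10.2 to 186 with a median of 36.6. Tumors with next to no Cd79a or Ms4a1 thus still had Cd22 RNA. PLK2null-7763 lay inside the range of the other Plk2-null tumors, since PLK2null-1974, at 140, and PLK2null-1971, at 139, were above it.

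Blk, a Src-family kinase of B cells that some T cells also express (chromosome 14, 63372836 to 63417037, minus strand), was 52.98 in PLK2null-732, 62.9 in PLK2null-733, 64.9 in PLK2null-743, 30.7 in PLK2null-7763, 1.73 in T11 and 185 in PLK2null-1981. The Plk2-null tumors had a lowest value of 0.620, a median of 2.95 and a highest of 185, and the p53-null tumors 1.16, 11.6 and 37.1. The highest p53-null value, in p53null-10155, was above that of PLK2null-7763.

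Ighm, the constant region of IgM (chromosome 12, 113418558 to 113422730, minus strand), was found in every tumor. It was at 576 in PLK2null-732, 705 in PLK2null-733, 857 in PLK2null-743, 609 in PLK2null-7763, 130 in T11 and 2904 in PLK2null-1981. The lowest, median and highest values were 14.97, 156 and 2904 in the Plk2-null tumors and 72.9, 243 and 901 in the p53-null tumors. p53null-5329 had that 901, above the 3 claudin-low tumors and second of all 41.

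Igkc, the constant region of the kappa light chain (chromosome 6, 70726435 to 70726966, plus strand), overlaps the long noncoding RNA gene Gm30211 on the same strand, and reads may be split between them. It was at 381 in PLK2null-732, 388 in PLK2null-733, 540 in PLK2null-743, 498 in PLK2null-7763, 3.03 in T11 and 3503 in PLK2null-1981. Its range was 1.44 to 3503 with a median of 22.9 in the Plk2-null tumors and 2.71 to 737 with a median of 98.9 in the p53-null tumors. p53null-5329, at 737, and PLK2null-1971, at 448, were also high, with Cd79a at 23.8 and 10.6. T11 kept IgM RNA with kappa RNA close to the bottom of the range.

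Mzb1 encodes a chaperone of immunoglobulin assembly in marginal zone B cells and plasma cells (chromosome 18, 35647267 to 35649367, minus strand), and a readthrough transcript of SPATA24 overlaps it on the same strand. Its mean of 8.48 over the 41 tumors was under the filter of 10, so it was tested only in a fit without the filter. Mzb1 was at 17.9 in PLK2null-732, 16.8 in PLK2null-733, 29.9 in PLK2null-743, 14.8 in PLK2null-7763, 0.433 in T11 and 54.9 in PLK2null-1981. It ran from 0 to 54.9 with a median of 2.02 in the Plk2-null tumors and from 0.433 to 13.7 with a median of 4.20 in the p53-null tumors. PLK2null-1963, at 42.1, PLK2null-1965, at 28.9, and PLK2null-1964, at 20.1, were among the 5 highest tumors for Mzb1 with Cd79a near the median. PLK2null-743 was among these 5 as well, and PLK2null-732, PLK2null-733 and PLK2null-7763 came next after PLK2null-1964.

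The question of the genotype comparison was whether B cell and plasma cell RNA differed between Plk2-null and p53-null tumors. Only Cd22 passed the test among the 8 genes tested, and it was higher in the Plk2-null tumors, at 130 ± 152 (SD, n = 28) against 54.3 ± 49.1 (SD, n = 13). Its log2 fold change on the log2(value + 1) scale was 1.31 (SE 0.34), with an adjusted p of 0.00174 by limma with Benjamini-Hochberg adjustment over all genes. Across all 17208 genes tested, 24.3% were called higher and 15.3% lower in the Plk2-null tumors, so that 1 higher gene among 8 is under the share of all genes. Of all calls 61.4% were higher, which became 50.7% after quantile normalization and 49.2% after rescaling by median ratios.

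For the other 7 genes the 95% intervals of the log2 fold change held 0. The fold change was 0.77 for Cd79a (-0.57 to 2.11), -0.62 for Cd79b (-1.84 to 0.61), 0.56 for Ms4a1 (-0.90 to 2.02) and -0.57 for Blk (-1.72 to 0.57). It was 1.08 for Pax5 (-0.37 to 2.54), -0.69 for Ighm (-1.69 to 0.31) and -1.18 for Igkc (-2.87 to 0.51). Mzb1, in the fit without a filter on low values, had a log2 fold change of -0.11 (-1.18 to 0.97). The Plk2-null median was under the p53-null median for Cd79b, Ms4a1, Blk, Ighm, Igkc and Mzb1, and above it for Cd79a, Cd22 and Pax5.

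Cd22 did not pass the test with only the 7 Plk2-null tumors that the study names as primary, where its log2 fold change was 0.65 (adjusted p = 0.410 by limma). Ighm did pass there, with a fold change of -1.51 (adjusted p = 0.0463). Without the 5 tumors PLK2null-732, PLK2null-733, PLK2null-743, PLK2null-7763 and PLK2null-1981, an alternative chosen after the data were seen, only Cd79b, Cd22, Ighm and Igkc had a mean of at least 10. All 4 then passed by limma, Cd22 higher at 1.02 (adjusted p = 0.00543) and the others lower, at -1.45 for Cd79b (adjusted p = 0.00162), -1.23 for Ighm (adjusted p = 0.0142) and -2.12 for Igkc (adjusted p = 0.0108). In that fit 16.6% of all genes were lower. Leaving out the highest tumors of 1 genotype lowers that genotype by construction, so these values describe the remaining 23 tumors.

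Macrophage genes were measured beside Cd22, since tumors without other B cell RNA had it. Of 9 macrophage markers, 1 (Cd68) was higher and none lower in the Plk2-null tumors, and the summed level of the list ran from 11388 to 63159 in the Plk2-null and from 14940 to 67382 in the p53-null tumors. Of 13 T cell markers 1, Trbc2, was lower and none higher. Over all genes 24.3% were higher and 15.3% lower, so these counts are under the share of all genes. The part of these cells in the Cd22 result was not tested.

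The class comparison asked whether the claudin-low Plk2-null tumors held other amounts of these RNAs than the other 25 Plk2-null tumors. Of the 8 genes tested, 7 were called higher in the claudin-low tumors and none lower, where 20.2% of 17153 genes were higher and 17.1% lower. The median log2 fold change was 4.06 over the 8 genes and 0.02 over all genes. Cd79a, Ms4a1, Blk and Pax5 had means under 10 in the 23 tumors outside the claudin-low ones, PLK2null-1981 and PLK2null-7763, so they passed the filter through tumors in which they were high, and these counts are a description only. The adjusted p-values of these 4 genes are no independent support for the class either. They stayed between 0.000579 and 0.00321 by limma when all genes were kept in the fit.

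Ms4a1 was at 120 ± 31.1 (SD, n = 3) against 22.9 ± 91.1 (SD, n = 25), a log2 fold change of 5.24 (SE 1.10) with an adjusted p of 0.000379 by limma. Pax5 followed at 4.82 (adjusted p = 0.00141), Cd79a at 4.51 (adjusted p = 0.00205), Igkc at 4.11 (adjusted p = 0.0217) and Cd79b at 4.01 (adjusted p = 0.00314) by the same test. Blk rose by 3.54 (adjusted p = 0.00214) and Ighm by 2.36 (adjusted p = 0.0460). Cd22 did not pass, with a fold change of 1.22 (0.16 to 2.28) and an adjusted p of 0.0634. In the fit without the filter, Mzb1 had a fold change of 2.39 (adjusted p = 0.0831).

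PLK2null-1981 belongs to the other 25 tumors and was above the claudin-low tumors in every gene. Thus none of the 8 genes had all 3 claudin-low values above all 25 others, where 11.1% of genes had. Without PLK2null-1981, Cd79a, Cd79b, Cd22, Blk and Pax5 had all 3 values above the other 24 (11.6% of genes), and all 8 genes were called higher, where 20% of genes were. Cd22 then passed at 1.36 (adjusted p = 0.00341 by limma). Leaving out the highest tumor of the comparison group raises these differences by construction, so they describe the remaining tumors. PLK2null-7763 was above at least 1 claudin-low tumor in Ms4a1, Ighm and Igkc.

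The calls of Ighm and Igkc rested on all 3 claudin-low tumors. Without PLK2null-743 the fold change was 2.22 for Ighm (adjusted p = 0.153 by limma) and 3.95 for Igkc (adjusted p = 0.0890). Both missed the threshold without PLK2null-732 (adjusted p = 0.107 and 0.0712) and without PLK2null-733 (adjusted p = 0.130 and 0.0724). Ighm also missed it when genes of low level were kept in the fit (adjusted p = 0.0632 by limma).

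**Figure D2:**
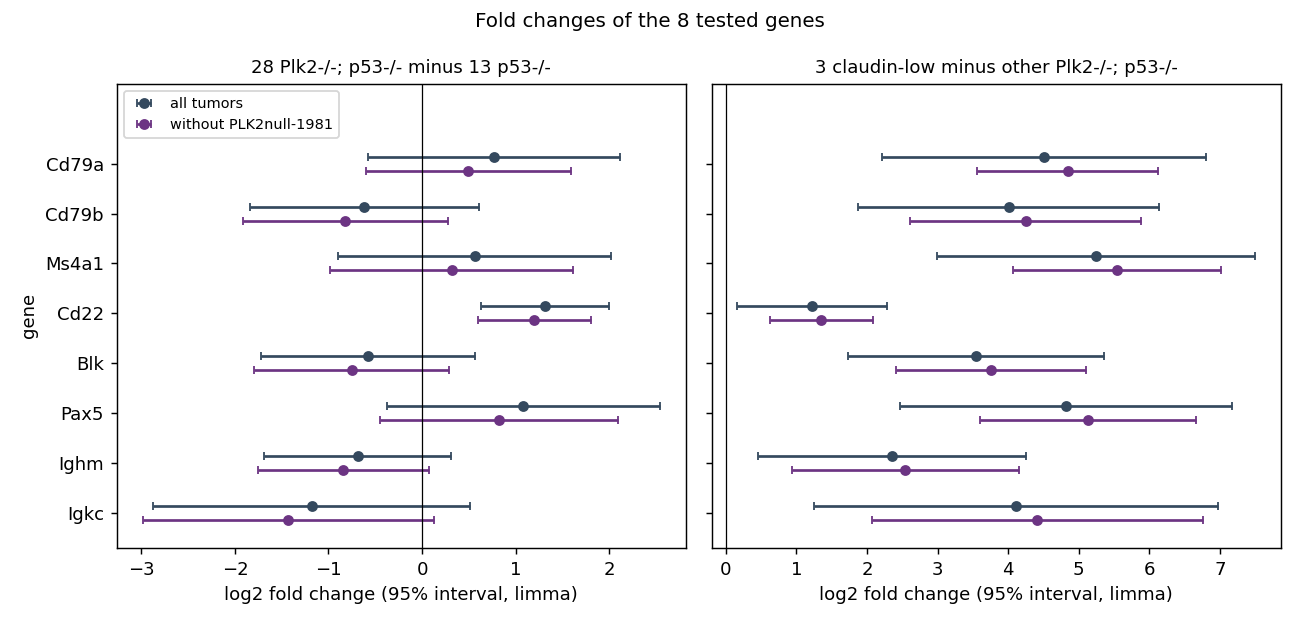
Log2 fold changes of the 8 tested genes with 95% intervals from limma, for genotype (left) and class (right), with all tumors and without PLK2null-1981. On the left only the intervals of Cd22 lie above 0, and on the right all intervals lie above 0, with Cd22 and Ighm nearest to it.

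The 3 claudin-low tumors differed from the others in many cell type markers at once. All 13 T cell markers, all 6 endothelial markers and all 5 tested red blood cell markers were higher by limma, and all 6 epithelial markers were lower. Over all genes 20.2% were higher and 17.1% lower in this comparison. The summed T cell level was 2900 to 5213 in these 3 tumors and 186 to 3978 in the other 25, with PLK2null-1981 at 3978. The endothelial sum was 165585 to 186496 against 2572 to 78025, and the epithelial sum 45.7 to 291 against 13539 to 119162. T11, which the supplement also lists as claudin-low, was unlike these 3 tumors in both sums. Its endothelial sum was 6876, and its epithelial sum was 33742, the lowest of the p53-null tumors. Of the 9 macrophage markers 1 was higher and 1 lower. Of 5 adipocyte markers tested, Fabp4 and Pparg were higher, while Adipoq, the hormone that defines fat cells, was at 3.58 to 11.9 in the claudin-low tumors. The part of these cells in the B cell result was not tested.

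Stroma of lymph nodes was compared by 7 genes, of which Ccl21a, Madcam1, Prox1 and Lyve1 were higher in the claudin-low tumors and none lower. Ccl21a, a chemokine of lymphatic vessels and lymph nodes, was at 49637 to 98005 in these 3 tumors, 45781 in PLK2null-7763 and 2503 in PLK2null-1981. The follicle chemokine Cxcl13, which draws B cells, was at 0.716 to 4.52 in the claudin-low tumors, and the T zone chemokine Ccl19 and Glycam1, a gene of high endothelial venules that milk-secreting epithelium also expresses, were at 0 to 0.565 and at 0. PLK2null-1981 shared raised Ccl21a, which was at most 599.8 in the other 36 tumors, but had Ccl19 at 409, Cxcl13 at 591 and Glycam1 at 7028, while its endothelial sum of 7743 and its epithelial sum of 88848 lay inside the range of the other tumors. High Cxcl13 and Glycam1 were not particular to PLK2null-1981. Cxcl13 was at 1430 in PLK2null-1984 and 585 in PLK2null-7750, where Cd79a was at 12.9 and 4.05. Glycam1 was at 46354 in p53null-5329. The tumors high in B cell genes differed in Ccl19, Cxcl13 and Glycam1, and the part of lymph node tissue was not tested.

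**Figure D3:**
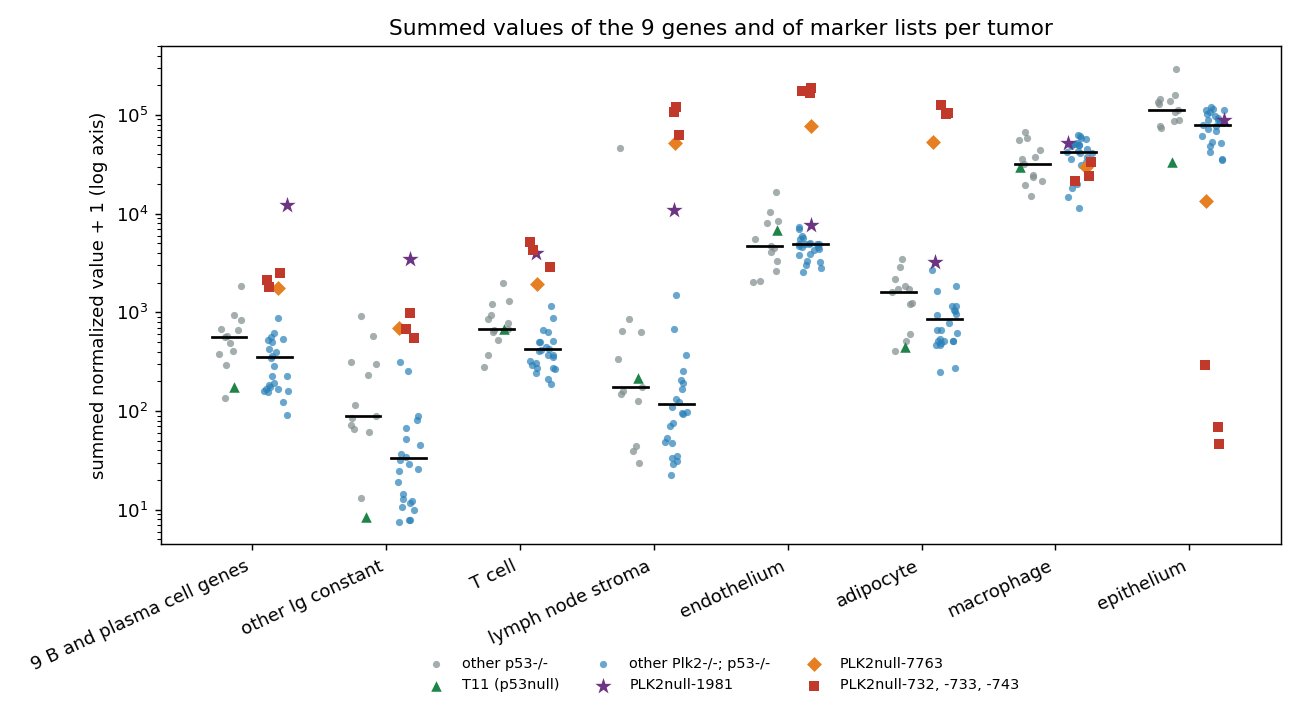
Summed normalized value + 1 (log axis) of the 9 genes and of marker lists in each tumor, p53-null to the left and Plk2-null to the right, with a bar at each group's median. PLK2null-1981 (star) is highest for the 9 genes and the other immunoglobulin constant genes but lies among the other tumors for endothelium and epithelium, where the claudin-low tumors (squares) stand apart.

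By RNA as a whole, PLK2null-1981 was most like PLK2null-1977 (Pearson r = 0.966 of log2 values over 17208 genes), PLK2null-1980 (0.956) and PLK2null-7764 (0.950). These 3 had Cd79a at 3.38, 6.03 and 8.25, Ighd at 3.38, 2.68 and 4.81 and Igkc at 10.1, 6.70 and 21.99. The tumors nearest to PLK2null-1981 were thus low in these B cell RNAs.

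The other immunoglobulin genes separated the tumors further. IgD, which is spliced from the same primary transcript as IgM in naive B cells, was measured as Ighd at 294 in PLK2null-732, 361 in PLK2null-733, 465 in PLK2null-743, 228 in PLK2null-7763 and 2579 in PLK2null-1981, against 0 to 14.02 in the other 36 tumors. IgA, a switched isotype, was measured as Igha at 150, 188 and 364 in the claudin-low tumors, 259 in PLK2null-7763 and 5.95 in PLK2null-1981. The ratio of Igha to Ighd was 0.509, 0.522 and 0.783 in the claudin-low tumors, 1.14 in PLK2null-7763 and 0.00231 in PLK2null-1981. The ratio of Ighd to Ighm was 0.511 to 0.543 in the claudin-low tumors, 0.374 in PLK2null-7763 and 0.888 in PLK2null-1981. PLK2null-1981 thus had IgM and IgD with hardly any IgA, and the claudin-low tumors and PLK2null-7763 had all 3.

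Jchain, which joins secreted IgA and IgM in plasma cells, was at 48.7 in PLK2null-732, 73.1 in PLK2null-733, 114 in PLK2null-743 and 118 in PLK2null-7763, and at 21.8 in PLK2null-1981. p53null-5329 had the highest Jchain of all tumors, at 143, with Igha at 396, Ighg1 at 361 and Ighd at 10.7. p53null-10155 was similar, with Igha at 387, Ighg1 at 124, Jchain at 95.3 and Ighd at 14.02. In p53null-5329 the ratio of Ighd to Ighm was 0.0119 and Cd79a was 23.8. In these p53-null tumors Igha and Ighg1 were thus above Ighd, while in PLK2null-1981 Ighd was far above Igha and above Ighg1, which was at 39.7.

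**Figure D4:**
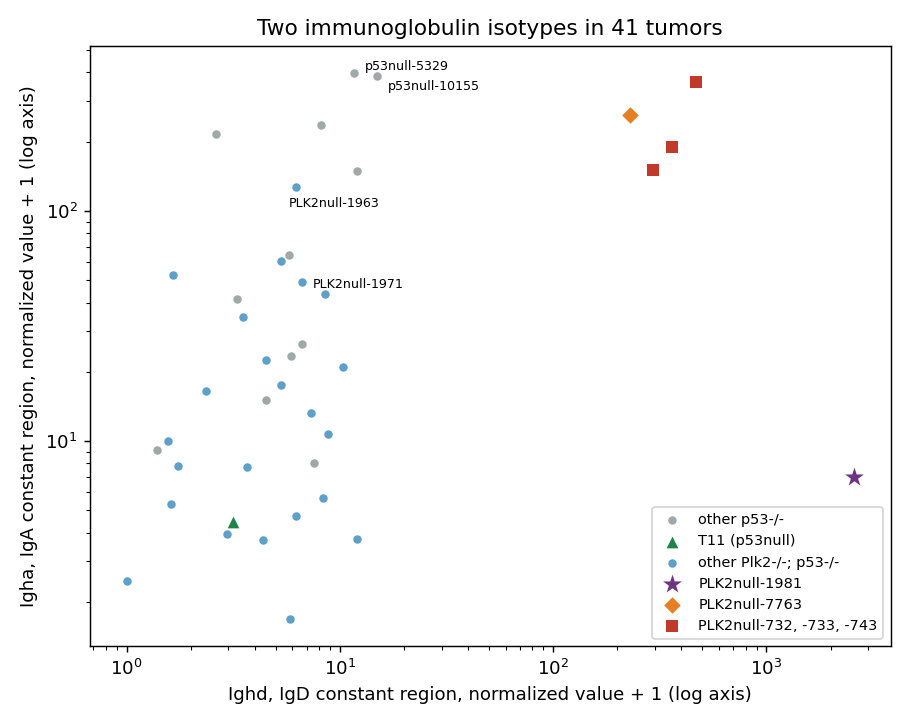
IgA (Igha) against IgD (Ighd) constant region values + 1 in each of the 41 tumors, both axes logarithmic. PLK2null-1981 (star) has the highest Ighd with Igha at 5.95, the claudin-low tumors and PLK2null-7763 are high in both, and p53null-5329 is highest in Igha with Ighd at 10.7.

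Of the other immunoglobulin constant genes that were tested, Ighd (log2 fold change 5.83, adjusted p = 0.000905), Iglc2 (4.61), Igha (4.01) and Iglc3 (3.42) were higher in the claudin-low tumors by limma, 4 of 5. Without PLK2null-1981 only 3 passed the filter, of which Ighd and Igha were called. Outside the claudin-low tumors, PLK2null-7763 and PLK2null-1981, Ighd was at most 14.02 and Iglc2 at most 8.76. Ighd and Iglc2 thus passed the filter through tumors in which they were high, and these calls are a description only. Between genotypes none of 6 was higher and 2 were lower in the Plk2-null tumors by limma, Ighg1 at -2.09 (adjusted p = 0.0125) and Ighg2b at -1.37 (adjusted p = 0.0365). Over all genes 24.3% were higher and 15.3% lower between genotypes, and 20.2% were higher in the claudin-low tumors. Constant genes of 1 class share sequence, in particular Iglc2 with Iglc3 and the IgG genes, and their reads may be split.

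B cell clones can share a variable segment, and the number of segments seen can rise with the amount of immunoglobulin RNA read. It is therefore not a count of clones. The table holds 346 segments, 183 of the heavy chain, 160 kappa and 3 lambda. At least 3 reads were found for 78 segments in PLK2null-1981, 63 in PLK2null-743, 54 in PLK2null-733, 46 in PLK2null-7763 and 19 in PLK2null-732. The summed reads of all segments were 729, 593, 435, 342 and 256 in the same order. p53null-5329 had 51 segments with 647 summed reads, p53null-7435 had 35 with 280 and T11 had 0 with 1. The segments are short and share sequence, so both the number and the assignment of reads are uncertain.

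In PLK2null-1981 the leading segment, Igkv1-135, made up 3.84% of the summed segment value of 482, and in the 3 claudin-low tumors the leading share was 5.29 to 5.64%. PLK2null-1971 had Igkc at 448 with 18 segments, and Igkv4-72 made up 24.5% of its sum. In p53null-10152 a single segment, Igkv8-21, made up 63.7% of the sum with 6 segments in all. At similar Igkc values of 381 and 388, PLK2null-732 had 19 segments and PLK2null-733 had 54.

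The 3 claudin-low tumors had 45.3 ± 23.2 segments (SD, n = 3) and the other Plk2-null tumors 7.04 ± 17.6 (SD, n = 25), a difference of 38.3 (2-sided exact permutation test, p = 0.0214, adjusted over 4 tests 0.0427). The test counts the 3 claudin-low tumors as independent, which the labels do not settle. With 10 reads in place of 3 the difference was 5.83 (exact permutation p = 0.217), and without PLK2null-743 it was 29.5 (exact permutation p = 0.160), so this call rests on that tumor and on the floor. The log2 summed value differed by 3.90 (exact permutation p = 0.00794, adjusted 0.0317). Between genotypes the number was 11.1 ± 21.4 (SD, n = 28) in the Plk2-null and 11.4 ± 15.3 (SD, n = 13) in the p53-null tumors (2-sided permutation test, p = 0.943), and the log2 sum differed by -0.66 (p = 0.365, adjusted 0.487).

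**Figure D5:**
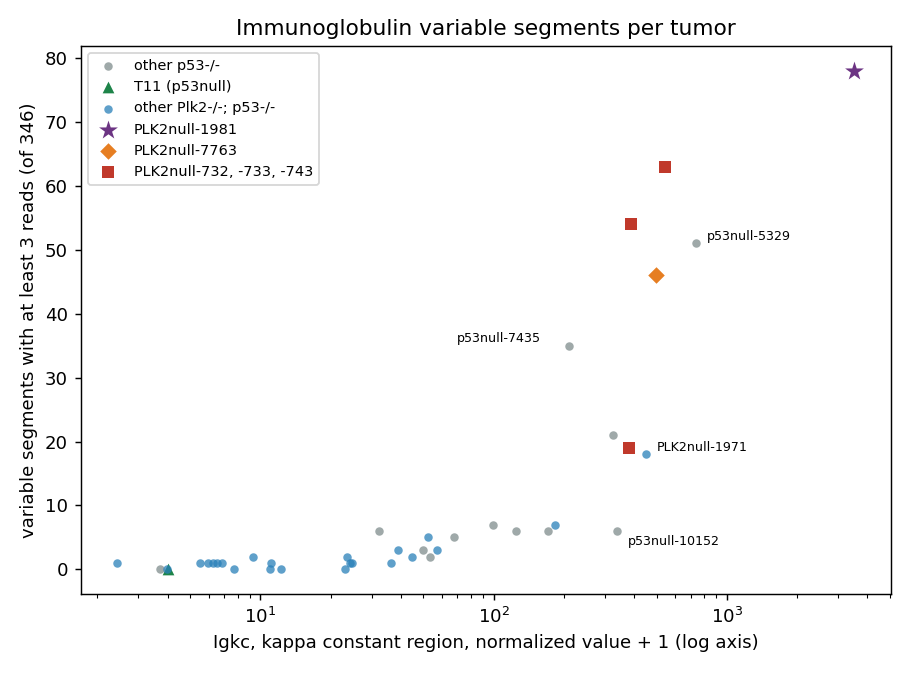
Number of immunoglobulin variable segments with at least 3 reads against the Igkc value + 1 (log axis) in each tumor. PLK2null-1981 has 78 segments, while PLK2null-1971 and p53null-10152, with Igkc at 448 and 338, have 18 and 6.

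Genes of B cell receptor signalling were in part higher in the claudin-low tumors, 6 of 12 higher and 2 lower by limma. Among them were Bank1, a B cell scaffold, with a log2 fold change of 4.52 and Lyn, a kinase of B cells and myeloid cells, at 2.66. Plcg2 was lower, at -2.62. Between genotypes 1 of the 12 (Syk, 0.92) was higher and none lower. Over all genes 20.2% were higher and 17.1% lower by class, and 24.3% higher and 15.3% lower by genotype. The 2 lower by class and the 1 higher by genotype are thus near or under the share of all genes. These shares also stand beside the counts of the lists below.

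Of 13 tested B cell surface genes, 6 were higher and none lower in the claudin-low tumors. Without PLK2null-1981, 12 passed the filter and 5 were called, Fcrla not among them. Cr2, the complement receptor of mature B cells, had a log2 fold change of 4.72, Fcrla 3.41, Fcrl1 3.27 and the follicle homing receptor Cxcr5 3.18. Cr2 was at 65.2 to 103 in the claudin-low tumors and 995 in PLK2null-1981, and Fcmr, the IgM Fc receptor, at 70.9 to 91.7 and 1046. Outside these tumors and PLK2null-7763, Cr2 was at most 11.1. Cr2 thus passed the filter through tumors in which it was high, and its call is a description only. Between genotypes Fcer2a (2.60) and Fcgr2b (1.02) were higher and Ly6d (-2.84) lower in the Plk2-null tumors. Fcer2a was at 771 to 8415 in PLK2null-7747, PLK2null-1963, PLK2null-1964 and PLK2null-1965, where Cd79a was at 5.85 to 10.1, and at 1166 in PLK2null-1981. In the other Plk2-null tumors Fcer2a was at most 127, and in the p53-null tumors at most 121.

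Of 10 B cell transcription factors, 5 were higher and 1 lower in the claudin-low tumors. Ebf1 rose by 3.21, Ets1 by 3.10 and Spib by 2.86, while Bcl11a was lower at -4.05. Ebf1 and Ets1 are also expressed outside the B lineage, and Ets1 was at 18944 to 20575 in the claudin-low tumors against 2785 in PLK2null-1981. Spib had the other order, 82.3 to 142 against 584. Between genotypes Pou2f2 (1.03) and Bach2 (0.71) were higher and Tcf3 (-0.40) lower.

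Plasma cell genes did not move as a group. Of 12 tested, 2 were higher in the claudin-low tumors (Jchain at 2.52 and Prdm1 at 1.27) and 4 lower, among them Derl3 (-3.22) and Sdc1 (-2.16), and the list's median log2 fold change was -0.25 against 0.02 over all genes. Sdc1 is also made by epithelial cells, whose markers were lower in the same tumors. The list's sum was highest in PLK2null-1980 (73085), where Igkc was at 6.70, so that sum is no measure of plasma cells alone. Igha, counted with the constant genes, was higher in the claudin-low tumors, as given above. Tnfrsf17, the receptor BCMA that defines plasma cells, was between 0 and 3.39 in all 41 tumors. Between genotypes Prdm1 (0.89) was higher and Fkbp11 (-0.62) and Ssr4 (-0.40) were lower in the Plk2-null tumors.

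Of 5 tested germinal center genes, Bcl6 was lower in the claudin-low tumors (-1.61) and none was higher, and between genotypes Mybl1 was higher (0.63). Only 2 of 7 precursor genes passed the filter, of which Erg, also an endothelial gene, was higher in the claudin-low tumors at 5.61, and between genotypes Il7r was higher at 1.28. Rag1 and Dntt, which act in B cell and T cell precursors, were at 0 to 3.60 in the 3 claudin-low tumors and PLK2null-1981. Of 6 tested genes for ligands and survival factors of B cells, Cd40 (2.88) and Il6 (2.33) were higher and 3 were lower in the claudin-low tumors, among them Ccl20 (-3.83) and Tnfsf13b (-1.93), which encodes the survival factor BAFF, and between genotypes none of the 6 passed the test.

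Among plasmacytoid dendritic cell genes, which share Tcf4, Spib and Bcl11a with B cells or their precursors, 3 of 6 were higher (Tcf4 at 2.58, Siglech at 2.04 and Ccr9 at 1.95) and Runx2 lower at -1.82 in the claudin-low tumors. Siglech, which defines that cell, was at 31.5 to 50.3 there, at 84.0 in PLK2null-1981 and at 1.73 in T11. The part of these cells in the B cell result was not tested.

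The 9 genes varied together across tumors, and less so without the high ones. Over the 36 pairs of genes, Pearson's r of log2(value + 1) over all 41 tumors had a median of 0.71 (0.32 to 0.86). Without PLK2null-732, PLK2null-733, PLK2null-743, PLK2null-7763 and T11 the median was 0.59 over 36 tumors, and without PLK2null-1981 as well it was 0.37 (-0.13 to 0.78) over 35. Points share their library and its composition, so these are descriptions.

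The genes most like each member were found by the same correlation. Over the 41 tumors the genes most like Cd79a included Ighd (r = 0.95), Iglc3 (0.89), Cr2 (0.88) and Fcrla (0.88). Those most like Ms4a1 included Cr2, Ighd, Iglc2 and Iglc3, those most like Pax5 included Ighd, H2-Ob, Gpr174 and Iglc3, and those most like Cd79b included Il4i1 (0.87), Bank1, Ighd and BC035044. Ighm was most like H2-Ob (0.81), Ptprcap, Il4i1, Cd8b1 and Fcrla. Igkc was most like Jchain (0.85), Skap1, Cd3d, Prkcq and Trbc1, of which Cd3d and Trbc1 are T cell receptor genes.

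Cd22 was most like Slamf6 (0.84), Ptprc, Aoah, P2ry14 and Siglecg, and Blk most like Ptprcap (0.82), Lax1, Tbc1d10c, Il4i1 and Cd3g. Without PLK2null-732, PLK2null-733, PLK2null-743, PLK2null-7763 and T11, Cd22 was nearest to Slamf6 (0.83), Lrmp, Wdfy4, Hmha1 and Siglecg, and Blk to 5830411N06Rik (0.79), Cd163l1, Trdc, Gimap1 and Ptprcap, of which Trdc is the constant region of the delta T cell receptor. Mzb1 was most like Ggt5 in both sets of tumors (0.86 and 0.83), with no B cell gene among its 5 nearest.

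Without those 5 tumors the nearest gene was still Ighd for Cd79a (0.91), Il4i1 for Cd79b (0.81) and H2-Ob for Ighm (0.80), while Igkc was nearest to Gimap1 (0.81). PLK2null-1981 remains in that set. Without it, over 35 tumors, those 3 nearest genes were lost. Cd79a was then nearest to Pigz (0.70), with Ighd at 0.67, Cd79b to Pltp (0.85), Ighm to Clec4b1 (0.80), Ms4a1 to Rnd3 (0.63) and Pax5 to Plac8 (0.76). After Clec4b1, Ighm was nearest to Clec4a1, Clec12a, Ppfia4 and Lpl. Igkc was nearest to Jchain (0.88) and Blk to Cd163l1 (0.88). Cd22 was nearest to Zeb2 (0.86), Aoah, P2ry14, Syk and Naip5, and Slamf6 and Siglecg were no longer among its 5 nearest.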

How the data were processed

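RNA-seq of 41 mammary tumors was used. Per the labels, the submitters' processing notes name STAR 2.7.6a, Salmon 1.4.0, SAMtools and Picard 2.22.4 with mm10. The authors deposited a linear signal, Salmon estimated counts divided by each tumor's upper quartile (1000 after scaling), for 47480 symbols. No column was left unused. Only 77.9 to 80.5% of nonzero values lay within 0.1 of a whole number of reads, so no count model was used. Tests used limma 3.58.1 in R 4.3.3 on log2(value + 1), which understates changes of low genes, keeping genes whose mean was 10 or more, with Benjamini-Hochberg adjustment over all genes and a threshold of 0.05. Single values per tumor were tested by permutation, exact for 3 against 25 and with 100000 resamples for 28 against 13 (Python 3.11.15, scipy 1.17.1, numpy 2.4.6, pandas 2.3.3, matplotlib 3.10.9).

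On simulated data, 174 of 189 changed and 4 unchanged genes were called in the genotype comparison (16834 genes). In the class comparison (16840 genes) 162 of 198 changed and 10 unchanged genes were called. The simulated tumors were independent, and each change was shared by all tumors of a group. These rates therefore do not carry over to genes that are high in single or related tumors. No 2 of the 820 pairs of tumors were identical. Positions, overlaps and exon lengths came from GENCODE vM21, in which 95.0% of symbols matched 1 gene. All 9 genes were named with fixed tumors, up to 4 called genes from each list by fold change (any others named were picked with values in view), and the 5 genes most correlated with each member. The members, lists and tests were chosen with earlier results of these data known. Alternatives were other pseudocounts, filters, scalings and sets of tumors. Some genes of the lists are not reported here.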

Additional observations from a re-analysis of the deposited data

How the results depend on the processing

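Among the class results, the number of members called was 4 with a mean of at least 50, as only 5 members then passed the filter, and 5 with each claudin-low tumor left out in turn. The number of genes called ranged from 4527 to 4629 in those fits. The number of variable segments differed by 5.83 with 10 reads in place of 3, and by 29.5 to 51.5 with 1 claudin-low tumor left out. The log2 summed value differed by 3.70 to 4.13 in those tests. Between genotypes, 4 members were called without PLK2null-732, PLK2null-733, PLK2null-743, PLK2null-7763 and PLK2null-1981, and 2942 genes were called with the 7 primary tumors, against 6802 with all 28. The segment difference changed sign from -0.24 to 0.31 with 10 reads in place of 3. The log2 fold change of Ms4a1 changed sign to -0.20 without PLK2null-732, PLK2null-733, PLK2null-743 and PLK2null-7763. With a pseudocount of 10 the class fold change of Ms4a1 was 3.15, under that of Cd79a (3.48) and Igkc (3.41). The cause of these changes was not tested, apart from the filter. No paired analysis was possible because the labels give no replicate numbers shared between the groups. The other alternatives run kept direction and side of the threshold, apart from the changes of Cd22, Ighm, Igkc and Cd79b given above. Ms4a1, Pax5, Blk and Mzb1 were under 3 reads in many tumors, so differences among low tumors were not detectable.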

Other observations

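Some B cell genes were higher in other tumors than in PLK2null-1981. Fcer2a, the low affinity IgE receptor of B cells, was at 8415 in PLK2null-1963 and 5716 in PLK2null-1965 against 1166 in PLK2null-1981. Pou2af1, a coactivator of immunoglobulin genes, was highest in PLK2null-1965 (15175), PLK2null-1964 (8548), PLK2null-7747 (6410) and PLK2null-1963 (3734), against 675 in PLK2null-1981. In PLK2null-1963 Cr2 was at 1.17 and Cd79a at 5.85, with Mzb1 at 42.1 and Igkc at 182, and in PLK2null-1965 Cd79a was at 6.87 and Pax5 at 16.5. Rag1 (29.3) and Dntt (23.1) were highest in PLK2null-1971. In p53null-5329, the tumor with the most Igha, Glycam1 was at 46354. These genes were picked with their values in view.

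A single kappa segment, Igkv14-111, was the leading segment in 15 of 28 Plk2-null tumors and in 0 of 13 p53-null tumors. Among the 15 it was under the floor in PLK2null-1973 (0.986) and PLK2null-1980 (1.34). Some of these tumors had few segment reads in all, 3 in PLK2null-1980 and 4 in PLK2null-1989. The ROSEN series and the genotype cannot be told apart here. Igkv14-111 had at least 3 reads in 20 Plk2-null and 2 p53-null tumors, with a median of 3.45 in the Plk2-null tumors, 7.94 in PLK2null-1981 and 2.15 to 4.19 in the claudin-low tumors. Its highest value of all tumors was 22.9, in p53null-5329, which had the second highest Igkc. Its sequence overlap with other segments was not tested.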
